A study of Bos taurus with 12 samples.

Results

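RNA levels of 8-16-cell bovine embryos grown from oocytes of prepubertal heifers were compared with those of 8-16-cell embryos grown from oocytes of adult cows. The comparison takes every array that the labels place at this stage, 3 of prepubertal and 3 of adult origin, which is 6 of the 12 arrays of the study. The other 6 arrays hold blastocysts of the same donor groups. All 24016 probe sets that are not array controls were used.

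All donors were Japanese Black cattle. Adult oocytes came from abattoir ovaries of cows, and prepubertal oocytes from the ovaries of heifers aged 9 to 12 months, removed with a spay device. In both groups the oocytes were matured in vitro for 20 to 22 h, fertilized with thawed semen and cultured under the same conditions, so that every embryo here is a product of in vitro culture. Embryos of normal morphology with 8 to 16 cells were picked on day 3, at 70 to 72 h after insemination, and RNA was extracted from pools of 50. Such pools average over embryos and hold only those that had reached the stage. The RNA was amplified, labelled as cDNA and read on Affymetrix bovine arrays, and the values are MAS5 signals on a linear scale. The labels call the 3 arrays of each group biological replicates. The labels name no donor, sire or culture day for a pool, and p-values therefore measure no more than the spread between pools. For single probe sets, the test also took its spread largely from other probe sets of similar level, over all 12 arrays.

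A cleavage-stage embryo lives at first on RNA and protein that the oocyte stored while it grew in the follicle. In cattle the embryo's own genome takes over around this stage, when maternal RNA is degraded, nucleoli form, and new RNA for ribosomes, splicing and energy metabolism is made. An oocyte of a prepubertal animal has grown in an ovary that has not yet cycled, and embryos from such oocytes are known to develop less often than those of adults.

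The markers of the stage were present in both groups. BMP15, a growth factor made by the oocyte, had signals of 25584, 19104 and 28328 on the adult arrays and of 24984, 17457 and 4961 on the prepubertal arrays. KPNA7, a nuclear import receptor of the oocyte and cleavage embryo, read 3868, 25749 and 25981 against 49094, 29232 and 249600. GDF9, the partner of BMP15, was above background on 3 adult and 2 prepubertal arrays. KRT18 and LGALS3, which mark the epithelium of the blastocyst, stayed at 217 or less on the adult arrays and at 495 or less on the prepubertal arrays, while the adult blastocysts read 12356 or more for KRT18. NLRP5, an oocyte protein gene, was at background on all 6 arrays.

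The prepubertal arrays had fewer probe sets above the highest background control. The background of each array was taken as the highest signal among its 27 control probe sets for bacterial (Bacillus subtilis) sequences. Adult arrays had 7148, 6674 and 5482 probe sets above it, and prepubertal arrays 4297, 5333 and 1255. The groups did not overlap, with a difference of −2806 (exact permutation test, p = 0.1, the smallest that 3 arrays against 3 can give). Without prepubertal replicate 3 the difference was −1620 (exact permutation test, p = 0.2, the smallest that 3 against 2 can give). This depended on the threshold. Above the 75th percentile of the controls the groups overlapped, with a difference of −1792 (exact permutation test, p = 0.4), and of −336 without replicate 3 (p = 0.8). Above a fixed signal of 2000 the difference was −425, and −173 without replicate 3, with no overlap in either case (exact permutation test, p = 0.1 and 0.2).

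Prepubertal replicate 3 stood apart from the other 5 arrays. Its background was 1664, against 122 to 424 on the others, and its 100 brightest probe sets held 49.3% of the summed signal, against 24.7% to 32.7%. Over all probe sets on the log2 scale, it correlated with the other arrays at r = 0.312 to 0.339, while adult arrays correlated among themselves at 0.588 to 0.629 and prepubertal replicates 1 and 2 at 0.537. The hybridization controls, which are added to every sample in equal amount, were 3.03-fold brighter on the prepubertal arrays (2.23-fold without replicate 3), again with no overlap. Of 5 controls that read a transcript at its 3 prime and 5 prime ends, none had groups without overlap on all 6 arrays. Without replicate 3 the ratio of the GAPDH ends was 5.01-fold higher on prepubertal arrays, with no overlap (exact permutation test, p = 0.2), and its part in the results was not tested. Because MAS5 scales each array to the same trimmed mean, a signal is a share of the array's own total, and less embryo RNA, lower labelling and a real loss of transcripts cannot be told apart by it. In RNA from whole pools, fewer cells of a type and less RNA per cell cannot be told apart either. For these reasons each called result below is given with all 6 arrays and without replicate 3. Other differences are for all 6 arrays unless stated, and many of them move by over 1.5-fold without that array. A signal of replicate 3 under 1664 is not above its background, so its rank among the arrays is not measured.

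**Figure D1:**
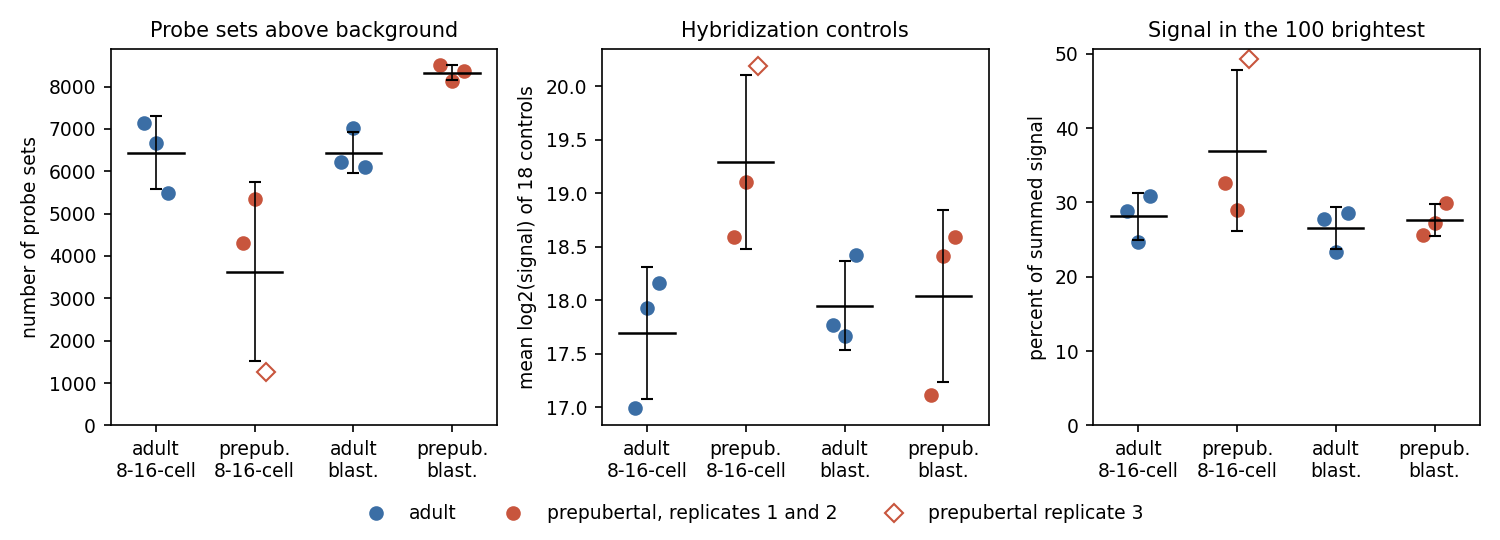
Each point is 1 array, with the group mean (bar) and SD (whiskers), for the number of probe sets above background, the mean log2 signal of 18 hybridization controls, and the percent of signal in the 100 brightest probe sets. Prepubertal 8-16-cell replicate 3 (open diamond) lies at 1255 probe sets and 49.3% of the signal, away from the other 11 arrays.

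Of the 24016 probe sets, 5 differed between the donor groups at an adjusted p under 0.05 (0.0208%), 3 higher in prepubertal embryos (0.0125%) and 2 lower (0.00833%). The test was limma's moderated test on log2(signal + 16), adjusted over all probe sets. All log2 differences below are prepubertal minus adult, with the standard error (SE) of that fit, and n = 3 arrays per group (2 prepubertal without replicate 3). The median difference over all probe sets was 0.59, so that a value near it is that of a typical probe set (0.29 without replicate 3, 0.05 after quantile normalization). The split into higher and lower depended on this scaling, with 3 higher and 5 lower after quantile normalization and 3 higher and 14 lower after each array was centred on its median. A further 2166 probe sets, counting these, had an unadjusted p under 0.05 (9.02%), 1671 of them higher (6.96%) and 495 lower (2.06%). The count of called probe sets was 14 without prepubertal replicate 2, 9 without prepubertal replicate 1 and 2 without adult replicate 1.

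DYNLT3 was the named gene that rose. It encodes a light chain of dynein, the motor that carries cargo along microtubules. Its probe set read 163, 107 and 9.1 on the adult arrays and 9600, 5551 and 93738 on the prepubertal arrays, so every prepubertal array was far above every adult one. The difference was 7.70 (SE 1.48, limma adjusted p = 0.00549), and without replicate 3 it was 6.48 with an adjusted p of 0.128, which did not pass. The other 2 probe sets of DYNLT3 gave −0.35 and 0.62 with all 6 arrays, and 1.34 and 2.07 without replicate 3, with overlap in both fits.

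STK38 was the named gene that fell. It encodes a kinase of the NDR family, which acts in the Hippo pathway and in control of cell division. Adult signals were 10177, 2675 and 14032, and prepubertal signals 183, 20.8 and 41.4, all of them at background. The difference was −6.60 (SE 1.45, limma adjusted p = 0.0419), and the level was at least 11.5-fold lower, a bound that sets each prepubertal signal to the background of its array. Without replicate 3 the bound was 18.7-fold, and the adjusted p of 0.0725 did not pass. STK38 has 1 probe set here, so no second reading of it exists.

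The other 3 probe sets that passed carry no gene name in the annotation used here. The first read 4.3, 10.9 and 9.4 on adult arrays and 9267, 238 and 1307330 on prepubertal arrays (difference 9.24, limma adjusted p = 9.81e-05), and the last value is the brightest of its array. Without replicate 3 its adjusted p was 0.0725, which did not pass. The second read 8.5, 12.5 and 7 against 1407, 2198 and 1199 (5.96, adjusted p = 0.0412). The third, the lower one, read 32700, 15056 and 31507 against 552, 483 and 578 (−5.50, adjusted p = 0.0393), with replicates 1 and 2 far under the adult arrays and replicate 3 under its own background.

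Without prepubertal replicate 3 there were again 5 probe sets at an adjusted p under 0.05 (0.0208%), 2 higher (0.00833%) and 3 lower (0.0125%). At an unadjusted p under 0.05 there were 1499 (6.24%), 1037 of them higher (4.32%) and 462 lower (1.92%). Of the called ones, 2 were also called with all 6 arrays, the unnamed probe sets at 1407, 2198 and 1199 (limma adjusted p = 0.0441) and at 552, 483 and 578 (0.0177) on the prepubertal arrays. A further unnamed probe set was at 4.3, 89.7 and 7.5 on adult arrays and 11017, 2124 and 24.1 on prepubertal arrays, the last of which was left out (7.04, limma adjusted p = 0.0177). The remaining 2 are named genes, and both were lower. With a further array left out, the count was 0 without adult replicate 1 (1364 at an unadjusted p under 0.05 in limma) and 13 without adult replicate 3.

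COX7A2, a subunit of cytochrome c oxidase in the mitochondrial inner membrane, read 13424, 28932 and 3894 in adult embryos. The prepubertal arrays read 608, 764 and 719, all under the adult arrays, although the last of these is not above the background of replicate 3. Without replicate 3 it fell by 4.04 (SE 0.83, limma adjusted p = 0.0278), and with all 6 arrays the difference was −4.02 (SE 0.97, adjusted p = 0.11).

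FTH1, the heavy chain of the iron store ferritin, read 15409, 10075 and 2070 in adult embryos against 1496, 374 and 2794. Prepubertal replicate 3 lay above the lowest adult array, so the groups overlapped when all arrays were used. Without that array FTH1 fell by 3.16 (SE 0.68, limma adjusted p = 0.0441), and with it the difference was −2.54 (adjusted p = 0.369).

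**Figure D2:**
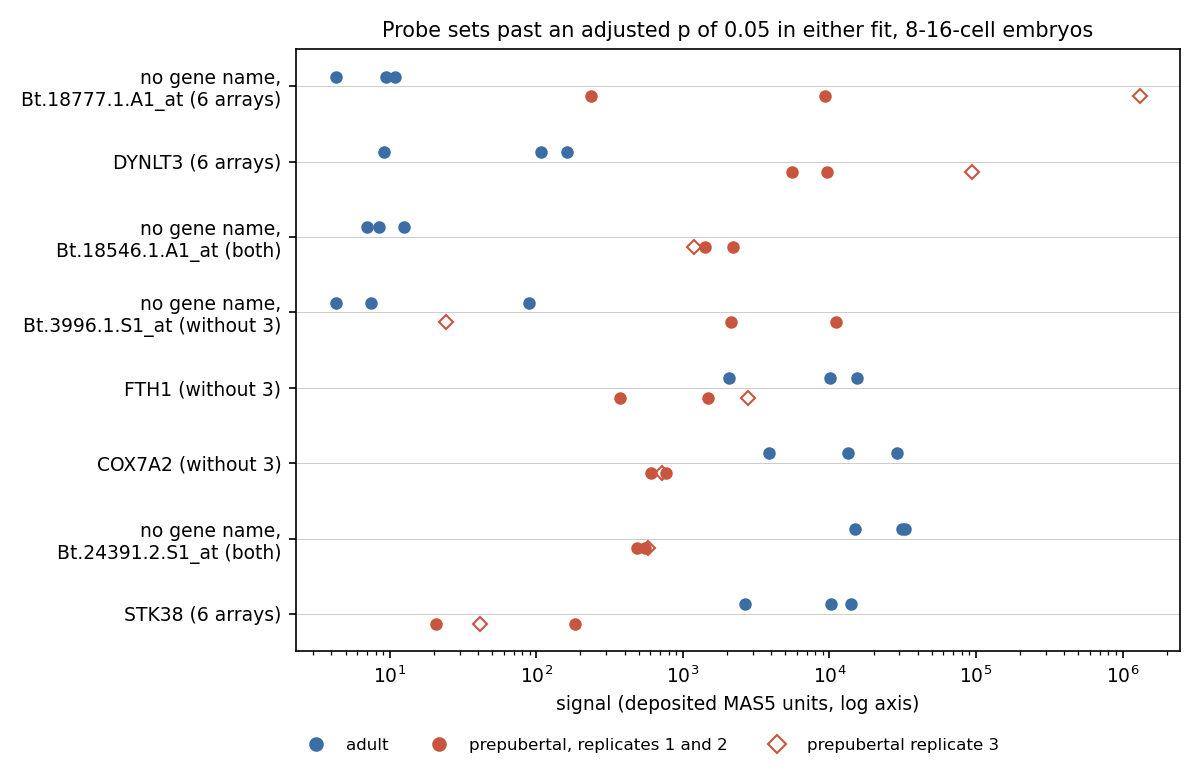
Deposited signal on a log axis of the 8 probe sets past an adjusted p of 0.05 in either fit, 1 point per array, with the fit that called each in parentheses. The prepubertal arrays of COX7A2 lie between 608 and 764 and those of STK38 at 183 or less, under all adult arrays, and DYNLT3 lies at 5551 or more against 163 or less.

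Further genes had groups that did not overlap but did not pass the test. Among all probe sets, 10.0% had every prepubertal array above every adult one and 2.67% had every prepubertal array below (14.6% and 6.75% without replicate 3), which is the background for the genes that follow. They are the genes of smallest p in each direction whose 6 arrays did not overlap, given as values. None of them is a called difference with all 6 arrays.

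On the lower side, SGK1, a kinase induced by serum and glucocorticoids, read 36556, 38656 and 45270 in adult embryos and 2535, 2790 and 651 in prepubertal ones (−4.57, SE 1.07, limma adjusted p = 0.082, and −3.90 without replicate 3, adjusted p = 0.0979). A different SGK1 probe set read 52824, 43197 and 86743 against 45382, 43886 and 115876, a difference of 0.07. The remaining, dim probe set was at 1.57, so the probe sets of SGK1 disagree.

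ATP6V1A, the catalytic subunit of the proton pump that acidifies lysosomes, read 9691, 11272 and 371 against 128, 118 and 43.2 (−5.06, adjusted p = 0.082, and 0.0725 without replicate 3). Its prepubertal signals were at background, which gives a level at least 5.44-fold lower. Of the other 3 probe sets of ATP6V1A, 2 were near −1.9 (−1.94 and −1.91) and 1 was at 0.20.

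GNL3, or nucleostemin, a GTP-binding protein of the nucleolus, read 10124, 3860 and 2330 against 90.2, 14.7 and 64.3 (−6.14, adjusted p = 0.0924). The prepubertal arrays were at background and the level was at least 7.13-fold lower. SMARCA4, the ATPase of a chromatin remodelling complex that is needed for genome activation in the mouse, read 3765, 4517 and 19570 against 314, 17.2 and 244, all at background (−5.62, adjusted p = 0.137). The other 4 probe sets of SMARCA4 ranged from −2.43 to 0.56, so that this gene too is not read alike by its probe sets.

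CANX, the calnexin that holds new glycoproteins in the endoplasmic reticulum, read 3497, 5616 and 16508 against 526, 1137 and 77.5 (−4.15, adjusted p = 0.134, and −3.12 without replicate 3). Its other 2 probe sets gave −2.59 and −2.45, and both gave −1.26 with overlap without replicate 3. RPL27A, a protein of the large ribosomal subunit, read 12568, 9246 and 3748 against 763, 1269 and 30.3 (−4.40, adjusted p = 0.137, and −2.92 without replicate 3, adjusted p = 0.411). NOP9, which takes part in making the small ribosomal subunit, read 2618, 289 and 2914 against 8.9, 5.5 and 33.4 (−5.48), and its other 2 probe sets read −1.41 and 1.61. IBTK, an inhibitor of Bruton tyrosine kinase, read 15006, 1246 and 6938 against 196, 374 and 35.2 (−4.98, adjusted p = 0.239, and −4.15 without replicate 3).

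On the higher side, the 9 genes after DYNLT3 were ADPRM, CASKIN2, ZNRD2, ATP5F1A, RABGAP1L, DEDD, GLYAT, EGFL8 and SLC22A5. Their differences lay between 3.51 for GLYAT and 4.89 for ZNRD2, and their adjusted p between 0.231 and 0.272. Adult arrays read 16.5 or less for every one of them, and at most 1 of the 3 prepubertal arrays was above its background. ZNRD2, with the largest difference of them, read 15.7, 7.9 and 10.2 against 1426, 333 and 1004, of which only 1426 was above the background of its array. ATP5F1A, the alpha subunit of ATP synthase, was higher on this probe set at 201, 317 and 1181 against 14.1 or less, yet its other probe set was lower, at 2675, 295 and 241 against 2584, 7367 and 7765 (−3.15). The other probe sets of CASKIN2 (0.40 and 1.26), SLC22A5 (0.48), DEDD (1.06) and EGFL8 (1.55) had smaller differences, each with overlap.

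Detection was counted against the background of each array. Of all 24016 probe sets, 299 were above background on all 3 adult arrays and on no prepubertal one, of which 197 name a gene. The reverse held for 1 probe set, that of PDIA4, a disulfide isomerase of the endoplasmic reticulum, at 76, 192 and 118 against 413, 2023 and 23502 (4.32, SE 1.44, limma adjusted p = 0.376, at least 13.7-fold higher). Without replicate 3 the PDIA4 difference was 2.77 (adjusted p = 0.815) and the bound 4.65-fold. Without replicate 3 the counts were 315 and 84. The background was 122, 248 and 251 on the adult arrays and 356, 424 and 1664 on the prepubertal arrays. Its part in these counts was not tested. Counted by overlap of signals instead, more probe sets lay higher (10.0%) than lower (2.67%), so these counts lean opposite ways.

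Leaving out replicate 3 brought forward another set of genes, chosen by the fit without it. DDIT4, which restrains mTOR signalling under stress, read 64.5, 3319 and 5316 in adult embryos and 24240 and 28669 in prepubertal replicates 1 and 2 (4.55, limma adjusted p = 0.0725), while replicate 3 read 34.5. AMBRA1, a regulator of autophagy, read 7181, 20472 and 4537 against 231260 and 105918 (4.16, adjusted p = 0.0725), with replicate 3 at 3842. For both genes replicates 1 and 2 lay above every adult array, and DDIT4 on replicate 3 was at background.

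PSMD4, a ubiquitin receptor of the proteasome, read 11.8, 112 and 1194 against 2959 and 15677 (5.39, adjusted p = 0.215), and its other probe set was higher by 3.56 with all 6 arrays. PRKCH, GNB1, APBB1IP and SLC31A2 had differences of 4.97 to 5.69 at adjusted p of 0.279 to 0.411, and replicate 3 was at background for each of them. The other probe set of GNB1 was at 0.02 with all 6 arrays and −0.05 without replicate 3. On the lower side PSMD14, a deubiquitinase of the proteasome lid, read 8266, 6080 and 33027 against 413 and 555 (−4.58, adjusted p = 0.128), with replicate 3 at 44594. BECN1, a core autophagy protein, read 15816, 6763 and 5536 against 453 and 243 (−4.59, adjusted p = 0.174), with replicate 3 at 129062 and a second probe set at 1.32 with all 6 arrays. RPS27, a protein of the small ribosomal subunit, read 1641, 7106 and 1816 against 361 and 14.2 (−4.71, adjusted p = 0.127), with replicate 3 at 4575.

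**Figure D3:**
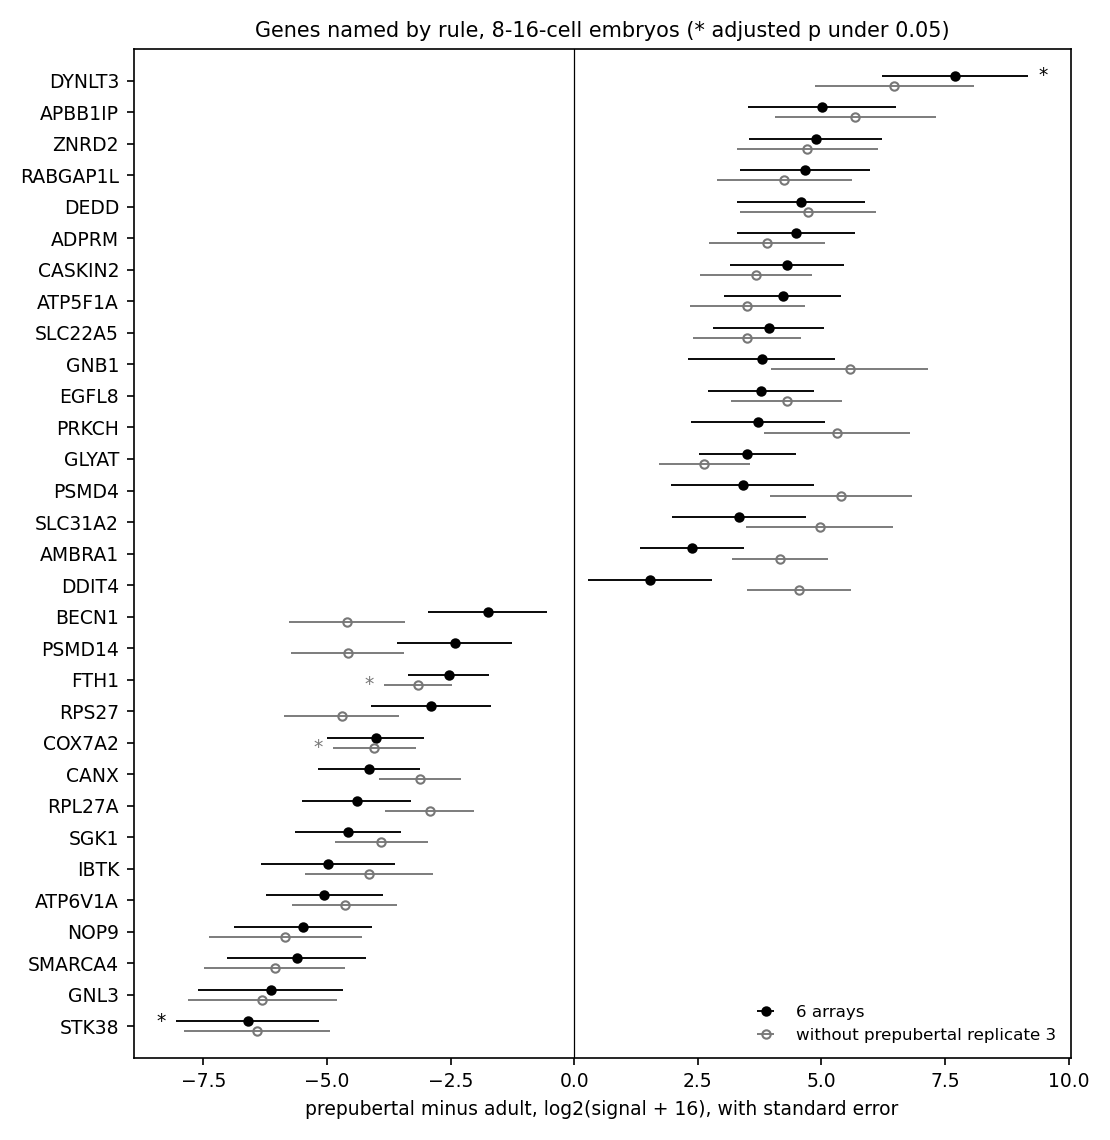
Log2 difference, prepubertal minus adult, with SE, for 31 genes chosen by rule, with all 6 arrays (black) and without prepubertal replicate 3 (grey), with an asterisk where the adjusted p was under 0.05. DYNLT3 at 7.70 and STK38 at −6.60 pass with 6 arrays, COX7A2 and FTH1 pass without replicate 3, and DDIT4 (1.54 and 4.55) and BECN1 (−1.75 and −4.59) differ most between the fits.

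Gene lists for 24 processes of the early embryo were then described by the number of members called and by their median difference, with 1 probe set for each of 9155 genes. The lists have no test here. With all 6 arrays no listed gene passed an adjusted p of 0.05, and without replicate 3 COX7A2 alone did, against 0.0208% of all probe sets in both fits. The median difference of all genes was 0.46 (0.25 without replicate 3), and list medians below are given relative to it. Among all genes, 8.74% had prepubertal arrays all above and 3.53% all below the adult arrays (13.6% and 7.73% without replicate 3). These shares are the background for every such count below. They were not counted among equally bright genes, so a count in a bright list is not matched for level. The level of a gene moved with its difference. In the 2289 brightest genes by mean level over the 12 arrays the median relative difference was −0.79 (−0.29 without replicate 3, −0.49 after quantile normalization), and in the 2289 dimmest it was 0.35. A list of bright genes is therefore to be read against −0.79 and −0.29, and not against 0.

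**Figure D4:**
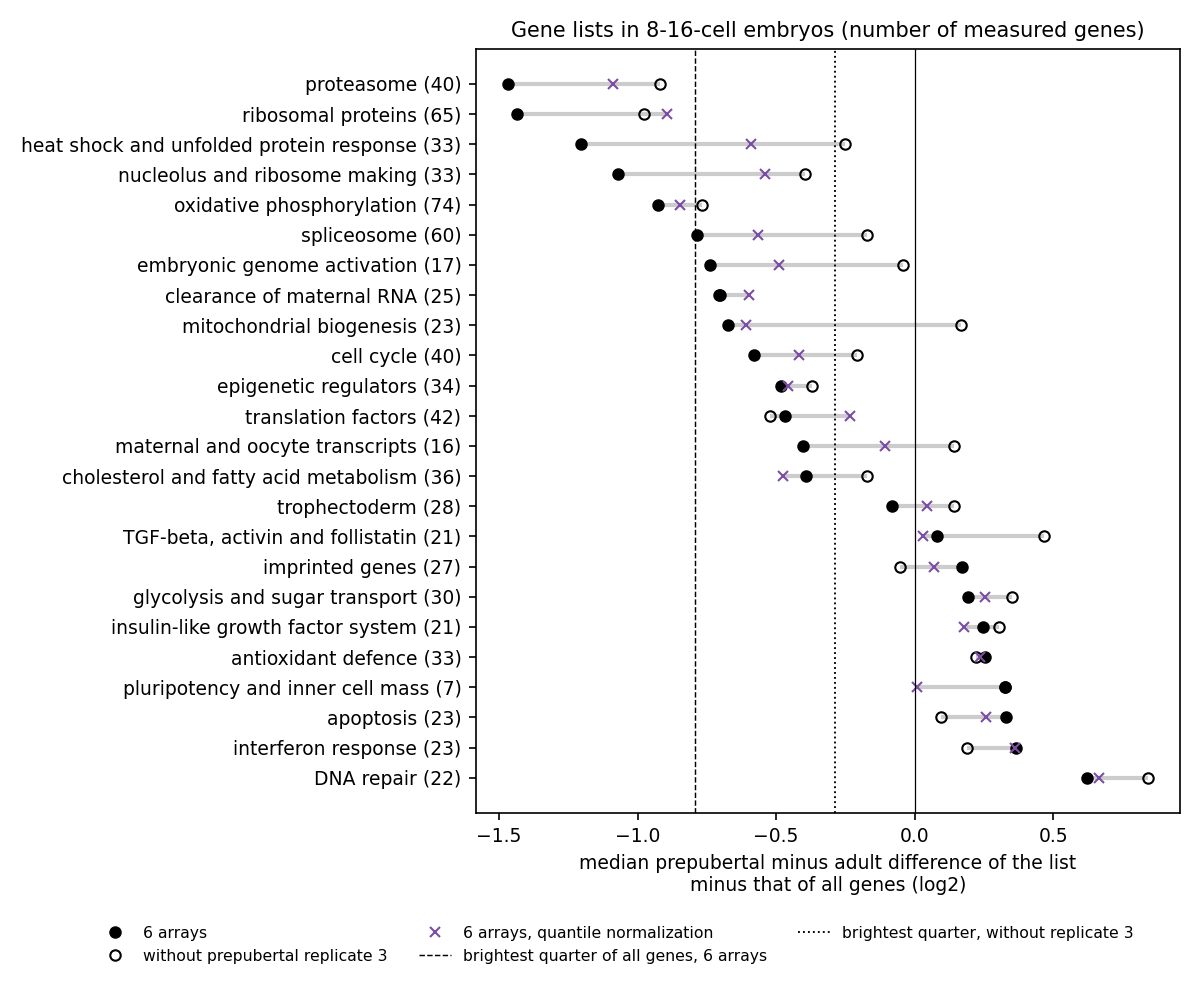
Median log2 difference of each gene list minus that of all genes, with all 6 arrays, without prepubertal replicate 3, and after quantile normalization, with the median of the 2289 brightest of all genes as vertical lines. Proteasome (−1.47) and ribosomal proteins (−1.44) lie lowest and DNA repair (0.62) highest.

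Genes of the translation machinery are mostly bright. Of 65 ribosomal protein genes measured, 6 had all prepubertal arrays below the adult ones and 1 above, and the relative median was −1.44 (−0.98 without replicate 3, −0.89 after quantile normalization). RPS15 read 3735, 10728 and 553 against 16.7, 443 and 130 (−4.45, limma adjusted p = 0.28), and RPL30 read 2626, 8375 and 3340 against 394, 391 and 1411 (−2.76, adjusted p = 0.455). RPS16, picked after its values were seen, ran the other way, at 1652, 1618 and 445 against 2232, 2660 and 1719. Of these genes 58 (89.2%) were among the 2289 brightest, and the shares without overlap among those were not counted.

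Of 42 translation factor genes, 34 (81.0%) were among the 2289 brightest. Without overlap, 7 (16.7%) lay lower and 2 (4.76%) higher, against 3.53% and 8.74% of all genes, and equally bright genes were not counted. The relative median was −0.47 (−0.52 without replicate 3, −0.23 after quantile normalization). That is above the median of the brightest genes except without replicate 3. EIF3J, part of the factor that prepares ribosomes for initiation, read 26671, 20173 and 30358 against 4548, 5210 and 2191, bright on every array (−2.76, limma adjusted p = 0.407). PABPC1, which binds poly(A) tails, read 3452, 12301 and 1652 against 820, 286 and 58.4 (−3.96, adjusted p = 0.359, and −3.04 without replicate 3). EEF1G, part of the elongation complex, read 1160, 344 and 3314 against 177, 17.4 and 33.9, at least 1.74-fold lower. ETF1, the release factor, picked after its values were seen, read 22734, 8137 and 8808 against 1248, 3054 and 499. EIF2S3, picked likewise, was higher at 17054, 6684 and 8692 against 5836 or less.

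Nucleolar and ribosome assembly genes had a relative median of −1.07 with all arrays and −0.40 without replicate 3. Of 33, 2 (6.06%) lay lower and 3 (9.09%) higher without overlap, against 3.53% and 8.74% of all genes. GNL3, described above, was the lowest of them. TAF1A, a subunit of the factor that starts RNA polymerase I, read 9.1, 8.7 and 248 against 931, 432 and 378 (3.33, limma adjusted p = 0.457). DKC1, the pseudouridine synthase dyskerin, read 11.7, 287 and 73.8 against 2636, 540 and 60.7, the last of them at background. POLR1D, a subunit of RNA polymerases I and III that was picked after its values were seen, read 8683, 7899 and 5355 against 13059, 28570 and 31805. With 2 and 3 genes apart, these counts are not read as a trait of the list.

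The proteasome list had the lowest relative median, at −1.47 with all arrays, −0.92 without replicate 3 and −1.09 after quantile normalization. Of its 40 genes, 3 lay lower and 2 higher without overlap (8 and 4 without replicate 3, against 7.73% and 13.6% of all genes). PSMA5, a subunit of the catalytic core that was picked after its values were seen, read 1496, 9807 and 2341 against 145, 1031 and 99.6 (−3.60, limma adjusted p = 0.407). PSMC6, an ATPase of the base picked likewise, read 23784, 13742 and 13096 against 8838, 6304 and 4245, a gap that is small and yet free of overlap. PSMB8, a subunit of the immunoproteasome, lay the other way, at 4.1, 3.5 and 7.5 against 266, 174 and 499, all of them under background.

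Chaperones and the unfolded protein response had a relative median of −1.20 with all arrays, but −0.25 without replicate 3, close to that of bright genes. CANX was lower and PDIA4 higher, as given above. DNAJB1, a co-chaperone of HSP70 that was picked after its values were seen, read 3478, 3684 and 5644 against 21062, 9830 and 12580 (1.72, limma adjusted p = 0.688).

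In oxidative phosphorylation, 6 of 74 genes (8.11%) lay lower and 3 (4.05%) higher without overlap, against 3.53% and 8.74% of all genes. Without replicate 3 these were 12 and 3 (16.2% and 4.05%), against 7.73% and 13.6%. Of the 74 genes, 51 (68.9%) were among the 2289 brightest, whose relative median was −0.79 (−0.29 without replicate 3). The shares without overlap among those brightest genes were not counted, so the counts of this list are not matched for level. The relative median of the list was −0.93, and −0.77 without replicate 3, so that it changed less with that array than most lists did. NDUFB3, a subunit of complex I, read 5805, 2882 and 8997 against 123, 586 and 367 (−4.07, SE 1.18, limma adjusted p = 0.312). COX5A, of complex IV like COX7A2, read 297, 4842 and 232 against 16.5, 13.9 and 46.2 (−4.20, adjusted p = 0.369). The other 3 lower genes, named after their values were seen, were UQCRQ of complex III, COX8A of complex IV and ATP5ME of ATP synthase, at −3.11, −3.58 and −4.05. The 6 genes span complexes I, III, IV and V.

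Genes for mitochondrial biogenesis had no member without overlap in either direction when all arrays were used. NRF1, a transcription factor for mitochondrial genes, read 6582, 534 and 1804 against 10.7, 1189 and 103. VDAC2, a channel of the outer membrane, read 9350, 3761 and 1440 against 3532, 494 and 594, and VDAC3 read 6.4, 2729 and 636 against 6976, 1510 and 1536. The related channels thus differed in opposite directions, at −1.85 and 2.90, and neither passed (limma adjusted p = 0.566 and 0.551).

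Among 33 antioxidant genes, 5 (15.2%) lay higher and 3 (9.09%) lower without overlap, against 8.74% and 3.53% of all genes. TXN, thioredoxin, read 1168, 1507 and 5921 against 240, 671 and 487 (−2.31, limma adjusted p = 0.578). TXNRD1, the reductase that recharges thioredoxin, was picked after its values were seen and read 438, 456 and 320 against 1849, 1321 and 6107 (2.58, adjusted p = 0.563). The 2 genes of this cycle differed in opposite directions, but TXN was above background on only 1 prepubertal array, and neither gene passed. PRDX2, a peroxiredoxin, read 5.6, 6.9 and 513 against 187, 971 and 1743.

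In sugar metabolism, 4 of 30 genes lay higher and 1 lower without overlap, with a relative median of 0.19. LDHA, lactate dehydrogenase, read 16724, 3065 and 20890 against 77373, 18141 and 40441, with overlap (1.91, limma adjusted p = 0.539). SLC16A1, a lactate and pyruvate transporter, read 2195, 8546 and 14382 against 165, 4531 and 229. PDHA1, which passes pyruvate to the citric acid cycle, read 881, 199 and 295 against 9.8, 138 and 30.1.

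Of 36 genes of cholesterol and fatty acid metabolism, 3 lay higher and 0 lower without overlap. CYP51A1, an enzyme of cholesterol synthesis picked after its values were seen, read 3428, 1359 and 1062 against 7861, 5830 and 3447 (1.66, limma adjusted p = 0.687). The fatty acid elongases ELOVL6 and ELOVL5 and the beta-oxidation enzyme HADHB had differences of −2.87, −2.02 and −3.32, each with overlap between the groups.

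Clearance of maternal RNA, the breakdown of stored transcripts, had a relative median of −0.70 in both fits. Of 25 genes, 3 (12%) lay higher and 2 (8%) lower without overlap, against 8.74% and 3.53% of all genes. XRN2, a nuclear exonuclease, read 14280, 3295 and 3355 against 634, 503 and 892 (−3.01, limma adjusted p = 0.517). CNOT2, part of the main deadenylase complex, read 11.4, 135 and 20.9 against 321, 460 and 408, of which only 460 was above background. Another 2 deadenylase genes were picked after their values were seen, so they do not describe deadenylases as a set. CNOT7 was at 35920, 44891 and 83864 in prepubertal embryos against 32715 or less, and PARN at 1462, 1195 and 7941 against 587 or less. The stored transcripts themselves had a relative median of −0.40 (0.14 without replicate 3) over 16 genes, of which KPNA7 was the 1 without overlap.

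Genes of embryonic genome activation had a relative median of −0.74, and −0.04 without replicate 3. TEAD4, a transcription factor of the later trophectoderm, read 50.2, 446 and 427 against 18.3, 29.6 and 28.3 (−2.54, limma adjusted p = 0.605). POU5F1, the pluripotency factor OCT4, read 164, 86.3 and 17.8 against 421, 656 and 31.4. EIF1AX and KLF4, picked after their values were seen, were bright on all 6 arrays, EIF1AX at 64959 to 198293 in adult and 168991 to 197396 in prepubertal embryos, and KLF4 at 99358 to 183214 and 136558 to 446667. SOX15, of the pluripotency list, read 2815, 3337 and 240 against 10.1, 816 and 813. ID2, which the trophectoderm list holds, read 10697, 1363 and 1061 against 241, 823 and 924.

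Spliceosome genes had a relative median of −0.79, equal to that of bright genes, and −0.17 without replicate 3. SF3A2, of the U2 particle, read 3708, 5197 and 136 against 10.5, 92.2 and 50.8 (−4.64, limma adjusted p = 0.369). Its signal of 136 on adult replicate 3 was not above background, and its other probe set was at 0.77. LSM7 read 5.8, 17.7 and 9 against 142, 1132 and 404, and SNW1, a core splicing protein, 3709, 10436 and 2126 against 23616, 14830 and 14366 (1.97, adjusted p = 0.539). Of the 60 genes, 3 lay lower and 4 higher without overlap.

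DNA repair was the list with the highest relative median, 0.62 with all arrays, 0.84 without replicate 3 and 0.67 after quantile normalization. MSH6, of mismatch repair, read 312, 3142 and 199 against 1947, 4997 and 4593 (2.56, limma adjusted p = 0.511), and XRCC4, of end joining, read 47.7, 313 and 8.7 against 843, 581 and 163. Both overlapped through adult replicate 2. Of 22 genes, 2 lay higher and 0 lower without overlap, near the 8.74% and 3.53% of all genes.

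Cell cycle genes held 6 members higher (15%) and 1 lower (2.5%) without overlap among 40, against 8.74% and 3.53% of all genes. CKS1B, a partner of cyclin-dependent kinases picked after its values were seen, read 22758, 7852 and 5254 against 37009, 32834 and 108204 (2.37, limma adjusted p = 0.511). CDKN1A, the inhibitor p21, read 644, 118 and 428 against 17932, 1118 and 423, and RB1, the retinoblastoma protein, 9.2, 169 and 7.4 against 1117, 431 and 182. The apoptosis list held the survival gene BIRC5, at 1803, 1344 and 974 against 4376, 18773 and 551, and BIRC3, at 7555, 3227 and 24731 against 472, 7252 and 34. Both were at background on replicate 3.

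Among 34 epigenetic regulators, 3 lay higher and 3 lower without overlap. UHRF1, which guides DNA methylation to newly made strands, was picked after its values were seen and read 20649, 18680 and 16716 against 1411, 7017 and 2909 (−2.59, limma adjusted p = 0.587). The adult arrays agreed closely and all prepubertal arrays lay under them. HDAC3, a histone deacetylase, read 5.6, 6.1 and 5 against 299, 260 and 43.4, all under background. Of 27 imprinted genes, 14 were above background on no array, and CDKN1C read 3.4, 107 and 157 against 192, 432 and 576.

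Many signalling genes were dim. In the insulin-like growth factor system 12 of 21 genes were above background on no array and none lay apart, and PIK3CA, a lipid kinase, read 4150, 4183 and 229 against 698, 136 and 33.8. Among 21 genes of the TGF-beta, activin and follistatin group, TGFB3 read 3.4, 21.3 and 19.7 against 238, 157 and 655, and the receptor BMPR1A read 126, 1003 and 196 against 9.4, 30 and 101. TGFB3 was under background throughout. In the interferon response, 5 of 23 genes (21.7%) lay higher without overlap, against 8.74% of all genes. However, 17 of the 23 were above background on no array. IFI44, induced by interferon, read 14.8, 19.4 and 103 against 1583, 261 and 423 (3.51, limma adjusted p = 0.448), and B2M, the light chain of class I molecules, read 156, 2201 and 24.9 against 5970, 1096 and 5660.

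The level of whole lists was also set out for each array. On prepubertal replicate 3, 7 of 40 proteasome, 14 of 42 translation factor and 22 of 60 spliceosome genes were above background. For cell cycle it was 9 of 40, for clearance of maternal RNA 6 of 25, and for insulin-like growth factors 1 of 21. The levels on that array therefore rest mostly on signals that are not above its background. The level here is the median log2(signal + 16) of a list minus that of all genes on the same array. It was lower on all 3 prepubertal arrays than on all 3 adult arrays for 6 of the 24 lists, higher for 1 and overlapping for 17. The proteasome stood at 2.37, 2.54 and 1.84 on adult arrays and 0.82, 1.26 and −0.03 on prepubertal arrays. Translation factors stood at 5.49, 4.97 and 4.19 against 3.44, 2.97 and 0.96. The spliceosome, clearance of maternal RNA, cell cycle and insulin-like growth factor lists were the other 4 with lower levels. The interferon response was the 1 with higher levels, and 17 of its 23 genes were above background on no array. The insulin-like growth factor list was separated by −0.198 on adult replicate 2 against −0.200 on prepubertal replicate 1 alone, and its median difference was above that of all genes (0.25). The cell cycle list held 6 members higher (15%) and 1 lower (2.5%) without overlap, against 8.74% and 3.53% of all genes. These levels are not set against those of equally bright genes. Ribosomal proteins overlapped, at 4.69, 4.50 and 2.85 against 2.98, 1.83 and 1.81, because prepubertal replicate 1 lay just above adult replicate 3. Oxidative phosphorylation overlapped through replicate 3 alone, at 1.07, 1.59 and 0.50 against −0.14, 0.20 and 0.77.

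**Figure D5:**
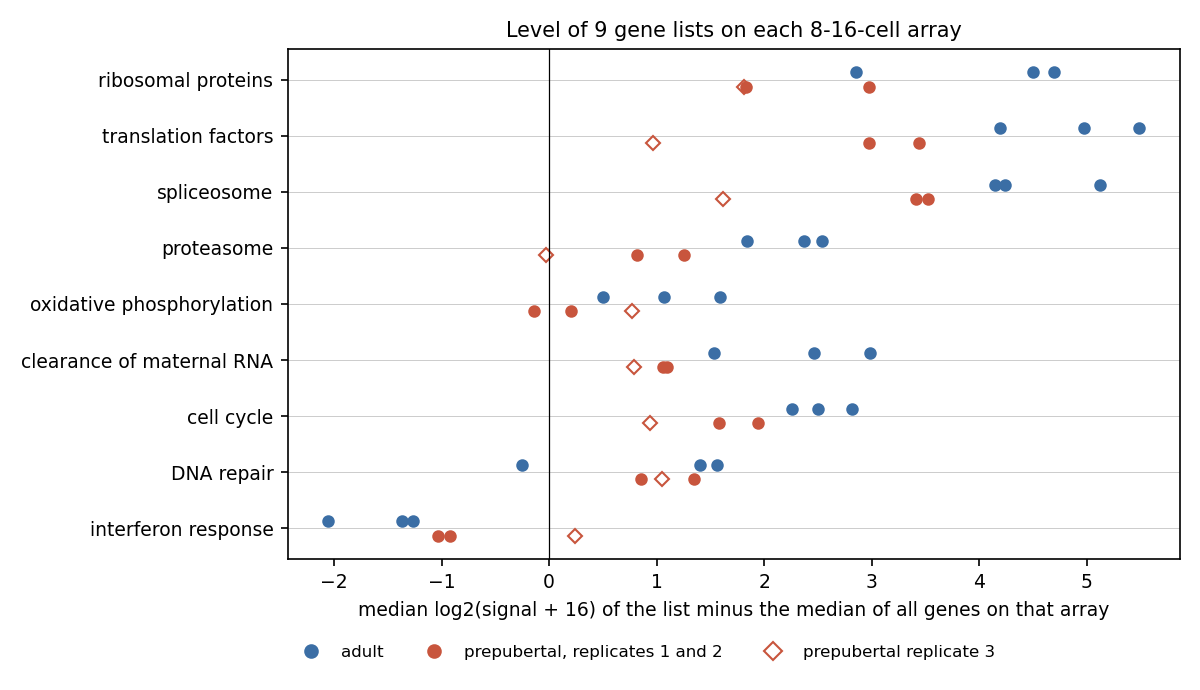
Level of 9 gene lists on each array, as the median log2(signal + 16) of the list minus that of all genes on that array, for adult and prepubertal 8-16-cell embryos. Proteasome, translation factors, spliceosome, clearance of maternal RNA and cell cycle lie lower on all prepubertal arrays (proteasome at most 1.26 against at least 1.84), the interferon response lies higher, and the remaining 3 lists overlap.

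Markers of other cells varied between arrays. Of 33 cumulus and granulosa cell genes, 19 were above background on no array, and the summed signal was 7819 to 28746 on adult arrays and 6728, 31563 and 119690 on the prepubertal arrays. With all 6 arrays, 0 of the 33 lay higher and 0 lower without overlap. Without replicate 3 these were 1 (3.03%) and 3 (9.09%), against 13.6% and 7.73% of all genes. Named after their values were seen, STAR read 3821, 1461 and 411 against 2413, 910 and 11344, and THBS1 read 908, 2263 and 880 against 269, 14087 and 97358, while the receptor genes FSHR and LHCGR and AMH read 243 or less, apart from LHCGR at 887 on prepubertal replicate 3, which is under its background. Of 18 blood genes 10 were above background on no array, with sums of 1344 to 2444 and 1761 to 7485. Of the 18, 4 (22.2%) lay higher and 1 (5.56%) lower without overlap, against 8.74% and 3.53% of all genes. The higher ones included S100A8 and S100A12, both under background on all arrays. LAPTM5 was among them too, at 14.3, 122 and 26.2 against 168, 602 and 126, of which only 602 was above background. Of 14 sperm genes 8 were above background on no array, with sums of 671 to 6528 and 1919 to 8335. The part of such cells in the results above was not tested.

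The blastocysts of the same donor groups served to ask whether the donor difference depends on the stage. They were day 7 pools of 10 embryos, against day 3 pools of 50, so pool size differed together with stage. In blastocysts, limma called 0 of 24016 probe sets between prepubertal and adult origin, with 884 at an unadjusted p under 0.05 (3.68%). The difference of the donor effects between the stages also called 0 probe sets, with 1307 at an unadjusted p under 0.05 (5.44%), and 0 and 1211 (5.04%) without replicate 3. No donor difference at the 8-16-cell stage was therefore shown to be particular to that stage. DYNLT3 read 3974, 55 and 2346 in adult and 918, 105 and 210 in prepubertal blastocysts, and the difference between stages was 9.27 (SE 2.09, adjusted p = 0.241). STK38 read 204, 1962 and 248 against 585, 2783 and 3630 in blastocysts, a difference between stages of −8.52 (adjusted p = 0.251). For both genes the sign of the donor difference in blastocysts was opposite to that in 8-16-cell embryos.

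The next genes by p of the difference between stages were SF3A2, GART and FASTKD2. GART, an enzyme of purine synthesis, read 5216, 9686 and 6109 in adult and 2576, 2580 and 118 in prepubertal 8-16-cell embryos, and 175, 41.6 and 21.3 against 3479, 1246 and 4780 in blastocysts (−8.03, limma adjusted p = 0.271). At the 8-16-cell stage the donor difference of this probe set was −2.81, and −1.39 without replicate 3. Its other probe set gave −0.28, and its direction turned without replicate 3, when both prepubertal arrays were above the adult ones. FASTKD2, which acts in making the mitochondrial ribosome, read 2077, 3057 and 134 against 6.8, 11.5 and 95.6 at the 8-16-cell stage (stage difference −7.45, adjusted p = 0.575), and its other probe set was at 0.15 (−1.12 without replicate 3). SF3A2 had a stage difference of −8.93 (adjusted p = 0.251). COX7A2 in blastocysts read 23206, 37917 and 26787 against 21457, 30201 and 64213, and FTH1 119601, 103532 and 118671 against 126662, 176999 and 142679, so that the donor groups overlapped for COX7A2, while for FTH1 every prepubertal array was above every adult one.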

How the data were processed

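The 12 arrays and their 4 groups were taken from the labels. The deposited signal intensity of each probe set was made by the authors with MAS5, per the submitters' processing notes, which name no version. The trimmed mean intensity (2% at each end) was about 500 on every array, which fits scaling to a common target. Signals carry no detection call here. Controls (112 probe sets) were left out of the tests.

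Gene names came from the platform annotation, updated by gene identifier through a RefSeq table: 13292 probe sets name exactly 1 gene, 86 several and 10638 none. Log2(signal + 16) was modelled in R 4.3.3 by limma 3.58.1 (functions lmFit and eBayes, the latter with a trend), 1 mean for each of the 4 groups over all 12 arrays, with 8 residual and 195.66 prior degrees of freedom, which means that the spread assumed for a probe set comes largely from others of similar level. Tests were two-sided, with Benjamini-Hochberg adjustment over 24016 probe sets at 0.05. The median SE was 1.30, and 3 arrays per group limit the precision. Differences on this scale understate the fold of dim probe sets. A fold written as "at least" sets the group that is wholly at background to the background of each of its arrays. If Bacillus subtilis RNA was added to the samples, that background is too high, which was not checked. Array-level numbers were compared with exact permutation tests.

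The rule named up to 10 genes per direction and fit (1 gene per probe set, no overlap between groups, the brighter group at or over the median, by difference if called and otherwise by smallest p with a difference of at least 1), 5 for the difference between stages, 7 stage markers, and 3 per list by smallest p without replicate 3. Others are marked as picked after their values were seen, as are all unnamed probe sets. The members, lists, rules and tests were chosen with earlier results of these data known. Lists use the probe set of highest mean per gene. Alternatives were another pseudocount (1 or 64), quantile normalization, median centring, a filter or floor at background, array weights, only the 8-16-cell arrays, a replicate block, no trend, and leaving out each array. Same-numbered samples of the donor groups did not deviate together (r = 0.0138, 0.0103 and 0.0197).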

Additional observations from a re-analysis of the deposited data

Results flagged for a closer look

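The donor difference in the number of probe sets above the highest background control was negative in 8-16-cell embryos and positive in blastocysts. It was −2806 in 8-16-cell embryos and 1887 in blastocysts, a difference of −4694 between the stages (exact permutation of the donor labels within each stage, p = 0.005, the smallest that these arrays can give). Without prepubertal 8-16-cell replicate 3 the difference between stages was −3507 (p = 0.01, exact permutation). This permutation assumes no donor difference at either stage, so its p does not test whether the donor difference was equal at both. The difference between stages depended on the threshold. Above the 75th percentile of the controls the donor differences were −1792 and 33.3, and the difference between stages was −1825 (exact permutation, p = 0.5). Above a fixed signal of 2000 they were −425 and −78.7, with a difference of −347 (exact permutation, p = 0.315). The hybridization controls were brighter on the prepubertal 8-16-cell arrays, and the blastocyst pools held 10 embryos against 50. The part of either in this was not tested. Groups of 3 arrays are too small for a check on single outlying arrays.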

How the results depend on the processing

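Against 5 called probe sets with all 6 arrays, limma called 3 with a pseudocount of 1, 3 with 64, 8 after quantile normalization, 17 after median centring, 3 with array weights, 2 from the 8-16-cell arrays alone, 0 among probe sets above background on at least 3 arrays (674 at an unadjusted p under 0.05), 0 without trend (2039) and 1, SGK1 (−4.13, adjusted p = 0.0266), with signals floored at background. Leaving out an array gave 2 to 14: 2 without adult replicate 1, 9 without prepubertal replicate 1 and 14 without prepubertal replicate 2. Without prepubertal replicate 3, against 5, the counts were 0 with a pseudocount of 1 (1442 at an unadjusted p under 0.05), 2 with 64, 0 with the filter (582), 0 with the floor (906), 3 with array weights, 2 from the 8-16-cell arrays alone and 0 without trend (1527). Leaving out a further array gave 0 to 13: 0 without adult replicate 1 (1364) and 13 without adult replicate 3. With the replicate number as a block the counts were 2 with all 6 arrays and 5 without prepubertal replicate 3; the samples share only a number, since same-numbered samples did not deviate together. The difference between stages called 0 in every alternative run (169 to 1795 at an unadjusted p under 0.05 with limma) except without prepubertal replicate 2, where it called 1, an unnamed probe set, a range of 0 to 1. The donor difference in probe sets above a fixed signal of 2000 was −425, against −2806 above background. The difference between stages of −4694 probe sets was −1825 above the 75th percentile of the controls and −347 above a signal of 2000, neither past p = 0.05 (exact permutation; thresholds added for this comparison after seeing the data). DYNLT3 was called in 11 of 16 alternatives (adjusted p 0.00549 to 0.623) and STK38 in 4 of 16 (0.0162 to 0.623). Of the values of single probe sets under the alternatives, 1658 kept their direction and their side of the threshold, 88 no longer passed, 29 newly passed and 0 reversed. Of the list medians under alternatives, 219 moved by less than the spread between arrays and 13 by more. The causes of these shifts were not tested. Signal over background limits the higher genes, most of which were at background in adult embryos.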
